A study of Mus musculus with 2 samples.

Results

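The neurotrophin and GDNF family ligands and receptors of the embryonic mouse midbrain were described from 9 genes, taken by symbol from the deposited gene tables and followed into the transcript tables. They are the ligand genes Bdnf, Ntf3, Gdnf and Nrtn and the receptor genes Ntrk2, Ntrk3, Ngfr, Gfra1 and Gfra2, 9 of 43346 genes measured, with 34 annotated transcripts. Midbrain tissue came from healthy B6NCrl embryos aged 13.5 days, pooled over males and females. There were 2 total RNA libraries of 1 group, numbered replicates 1 and 2, each made from 10 ng of RNA longer than the labelled size limit, with spike-ins added. The labels give each library its own biosample and both the same donor entry, so SDs measure only the spread between these libraries, which may be technical. SEs and p-values of the pair tests rest on the same 2 libraries and borrow spread from all genes of the fit. There was no second tissue, age or treatment, so the comparisons are between genes, between forms of a receptor and between the replicates.

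Neurotrophins are secreted growth factors that keep neurons alive and shape their axons and synapses. BDNF binds the receptor tyrosine kinase TrkB (Ntrk2), NT-3 binds TrkC (Ntrk3), and all of them, mature or as precursors, can bind p75 (Ngfr). GDNF and neurturin (Nrtn) bind the membrane-anchored co-receptors GFRα1 (Gfra1) and GFRα2 (Gfra2), which signal together with the kinase Ret or with the adhesion molecule NCAM. GDNF and BDNF are known as survival factors of midbrain dopaminergic neurons.

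The libraries held 32151659 reads in replicate 1 and 41915240 reads in replicate 2 as deposited expected counts, the estimated reads per gene. Midbrain identity genes were present, with 5 of 5 reaching 1 TPM (a level per transcript length) in each library and a summed level of 165 TPM in replicate 1 and 189 TPM in replicate 2, while 0 of 4 hindbrain Hox genes were detected and Hoxb1 and Hoxa3 were at 0. Some marker sums differed between the replicates: the dopaminergic markers summed to 90.1 TPM in replicate 1 and 156 TPM in replicate 2, and the cortex markers to 3.56 and 15.6 TPM. Meningeal markers were detected in 7 of 7 cases (277 TPM in replicate 1 and 340 TPM in replicate 2), and neural crest and Schwann markers in 1 of 5 (9.54 and 7.65 TPM), with Sox10 at 0.48 and 0.53 TPM. The part of these differences in the levels below was not tested.

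Among the 9 genes, receptor RNAs stood above ligand RNAs. The lowest receptor value, 4.25 TPM for Gfra2 in replicate 2, was above the highest ligand value, 3.12 TPM for Nrtn in replicate 2. The deposited bounds of these values just overlapped, from 3.76 TPM for Gfra2 and up to 3.79 TPM for Nrtn. Outside the 9 genes this did not always hold. Ret, at 2.12 and 2.32 TPM in replicates 1 and 2, lay below Nrtn in both libraries, while Gfra4 lay above it. TPM is scaled by transcript length and so can be set between genes, and detection here means 1 TPM or more in each library. All 5 receptors and 2 of the 4 ligands were detected, 7 of 9 genes. Over all genes, non-coding ones included, 14878 of 43346 were detected, and this share stands beside every detection count given here. All 9 genes are protein-coding. The share of protein-coding genes detected was not taken, so these counts do not show that detection was unusual. The order by mean level was Gfra1, Ntrk2, Ntrk3, Ngfr, Gfra2, Nrtn, Bdnf, Ntf3 and Gdnf. In 6 of the 8 neighbouring pairs of this order the values of the libraries did not overlap. They overlapped between Ntrk3 and Ngfr and between Nrtn and Bdnf, so those orders are not settled. The first place of Gfra1 over Ntrk2 depended on short, incomplete Gfra1 transcripts: without them, an alternative chosen after seeing the data, Gfra1 had 25.8 TPM in replicate 1 and 29.1 TPM in replicate 2, on either side of Ntrk2 at 27.74 and 27.63 TPM. The median of the 7 detected genes was 12.4 TPM, against 16.4 TPM over all 14878 genes detected in the tables, and over all 9 genes, the undetected ones included, it was 4.56 TPM. In whole tissue, fewer cells of a type and less RNA per cell cannot be told apart.

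**Figure D1:**
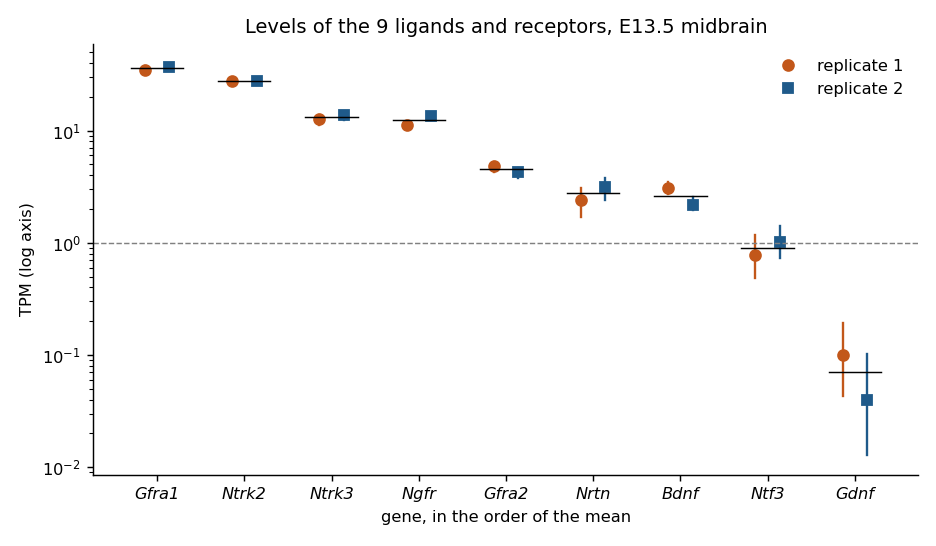
TPM (log axis) of the 9 ligand and receptor genes in replicate 1 (circles) and replicate 2 (squares), with the interval bounds deposited for each value (no confidence level stated) and the mean as a short line. The dashed line marks a TPM of 1: Ntf3 lies on either side of it and Gdnf below it, while all 5 receptors lie above 4 TPM.

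Among the neurotrophin ligands, Bdnf (chr2:109674700-109727007, plus strand, GRCm38) had 3.05 TPM in replicate 1 and 2.18 TPM in replicate 2, a mean of 2.62 ± 0.615 TPM (SD, n = 2) from 239 and 229 reads. Ntf3, which encodes NT-3 (chr6:126101412-126166910, minus strand), had 0.78 TPM in replicate 1 and 1.02 TPM in replicate 2, a mean of 0.900 ± 0.170 TPM from only 19 and 35 reads. Ntf3 was below Bdnf in both libraries, and the values did not overlap. On the log2(TPM + 0.1) scale Ntf3 minus Bdnf was -1.84 in replicate 1 and -1.03 in replicate 2, a mean of -1.43 ± 0.39 (SE), or 0.370-fold (limma moderated test within libraries, two-sided, adjusted p = 0.000283). Of all 17702 genes set against Bdnf in this fit, 85.1% differed from it at an adjusted p under 0.05, so passing the test is the rule rather than a mark of Ntf3. Ntf5, which encodes the neurotrophin NT-4, had 0 reads in both libraries, where 3 reads would have been 0.0803 and 0.0602 TPM.

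Bdnf is transcribed from several promoters, each with its own first exon spliced to the same coding exon. Of 11 annotated transcripts with 9 different first-exon starts, 4 were given reads in each library. The one whose first exon begins at chr2:109693563 and ends at chr2:109693909 (Bdnf-205) led, with 1.89 TPM in replicate 1 and 1.19 TPM in replicate 2, or 62.1% and 54.6% of the gene. The first exon starting at position 109692436 (Bdnf-209) took 20.1% and 24.3%, and the most upstream, at position 109674700 (Bdnf-201), 12.7% and 12.1%. The 3 transcripts that share the start 109675897 together held 5.04% in replicate 1 and 8.98% in replicate 2, given to Bdnf-207 in replicate 1 and to Bdnf-210 in replicate 2. In TPM the order of these 4 start groups was the same in both libraries, although Bdnf-205 rests on 147 and 124 reads and Bdnf-201 on 32.3 and 29.5. The lower places are not settled. The deposited bounds of Bdnf-209 and Bdnf-201 overlapped in each library. In posterior mean TPM, Bdnf-201 was above the start 109675897 in replicate 1 (0.36 and 0.31 TPM) and below it in replicate 2 (0.25 and 0.29 TPM). In GENCODE M21, exons of Bdnf overlap an antisense gene, Gm45346, over 896 nt. The use of strand in the authors' counting is not stated, so reads of the antisense RNA could not be told apart if strand was ignored. For Ntf3 the deposited estimates placed 100% of the gene in replicate 1 on Ntf3-201, against 34.6% in replicate 2, with the other 65.4% there on Ntf3-202. With 19 and 35 reads and widely overlapping deposited bounds (0.000840 to 0.959 TPM in replicate 1 and 0.0888 to 0.748 TPM in replicate 2 for Ntf3-201), no switch is read from this.

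The Trk receptors were led by Ntrk2 (chr13:58806569-59133970, plus strand), which encodes TrkB. It had 27.74 TPM in replicate 1 and 27.63 TPM in replicate 2, a mean of 27.7 ± 0.0778 TPM, from 4313 and 5690 reads, and 63.2% of detected genes had a lower mean. Ntrk3 (chr7:78175959-78738012, minus strand), which encodes TrkC, had 12.7 TPM in replicate 1 and 13.7 TPM in replicate 2, a mean of 13.2 ± 0.679 TPM. Ntrk2 was above Ntrk3 in both libraries by 1.12 and 1.01 on the log2(TPM + 0.1) scale, a mean of 1.06 ± 0.12 (SE) or 2.09-fold (limma, adjusted p = 6.07e-18). In the fit against Ntrk3, 92.8% of all 17702 genes passed. These p-values and SEs borrow their spread from all genes of the fit and rest on 2 libraries, so the folds and the values of each library carry the comparison.

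Each Trk receptor exists as a full-length form with the kinase domain inside the cell and as truncated forms without it. The forms part after a shared stretch of coding sequence, and the bases around that point are shown because they are what separates the transcripts counted below. Lower case is the last 25 bases of the exon all listed forms of the gene share, and capitals are the first 38 bases after the junction, which differ between forms. The sequences are from GENCODE M21 transcripts, GRCm38, and are written 5′ to 3′ on the strand of the gene.
Ntrk2 full (Ntrk2-201, capitals from the exon at chr13:58985802-58985990, plus strand): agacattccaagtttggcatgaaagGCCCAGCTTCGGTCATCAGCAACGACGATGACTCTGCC
Ntrk2 truncated (Ntrk2-202, capitals from the coding part of the exon at chr13:58932023-58932057 and the stop codon after it, plus strand): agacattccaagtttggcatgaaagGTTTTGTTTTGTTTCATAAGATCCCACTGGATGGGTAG
Ntrk3 full (Ntrk3-201, capitals from the exon at chr7:78260284-78260414, minus strand): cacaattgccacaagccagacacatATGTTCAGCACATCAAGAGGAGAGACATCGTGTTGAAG
Ntrk3 truncated (Ntrk3-202, capitals from the exon at chr7:78304292-78304426, minus strand): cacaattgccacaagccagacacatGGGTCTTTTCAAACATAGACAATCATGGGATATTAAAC

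The truncated Ntrk2 form reads through its own 35-nt coding exon to a stop codon, so its coding sequence holds 476 codons, against 821 in the full-length form. The full-length Ntrk3 form without an insert holds 825 codons and the truncated one, which uses 2 coding exons of its own, 612.

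**Figure D2:**
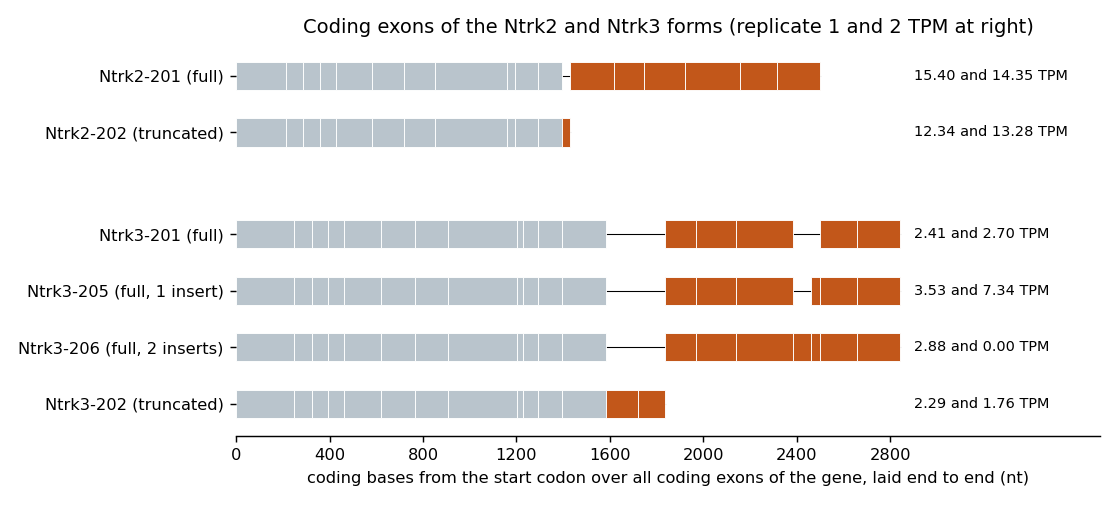
Coding exons (boxes) of the Ntrk2 and Ntrk3 forms along the coding bases of all exons laid end to end, in nucleotides from the start codon; grey boxes are shared by all forms shown of that gene and orange boxes are not. The TPM of each transcript in replicate 1 and replicate 2 stands at the right, with both Ntrk2 forms between 12.3 and 15.4 TPM and the truncated Ntrk3 form between 1.76 and 2.29 TPM.

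Ntrk2 RNA was divided nearly evenly between its forms. The full-length form had 15.4 TPM in replicate 1 and 14.3 TPM in replicate 2, and the truncated form 12.3 and 13.3 TPM. The full-length form thus took 55.5% of the gene in replicate 1 and 51.9% in replicate 2, a mean of 53.7 ± 2.53% (SD, n = 2). The levels of the forms did not overlap between libraries, but the log2 ratio of full over truncated was 0.32 in replicate 1 and 0.11 in replicate 2, a mean of 0.22 ± 0.15 (SD). In replicate 2 the deposited bounds overlapped, at 13.4 to 14.6 TPM for the full-length form and 12.3 to 13.7 TPM for the truncated form. They were apart in replicate 1, so the order of the forms is not settled. Counted as reads instead of per length, the ratio was larger, 1.53 in replicate 1 and 1.32 in replicate 2, as the full-length transcript model (8541 nt) is longer than the truncated one (7002 nt).

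Ntrk3 RNA was mostly full-length. The 3 full-length transcripts summed to 8.82 TPM in replicate 1 and 10.0 TPM in replicate 2, or 69.3% and 73.3% of the gene. The truncated form had 2.29 and 1.76 TPM, or 17.9% and 12.8%, and 2 transcripts without a coding sequence made up the rest. Full over truncated was 3.85 in replicate 1 and 5.70 in replicate 2, a mean log2 ratio of 2.23 ± 0.40 (SD, n = 2). The full-to-truncated ratio of Ntrk3 was above that of Ntrk2 in both libraries, and these shares are the authors' estimates from short reads over annotated transcripts. Of the 34 transcripts, 9 have a different length in GENCODE M21, among them Ntrk3-201 at 3300 nt deposited against 19703 nt and the truncated Ntrk3-202 at 2337 nt against 3977 nt, so the levels of the Ntrk3 forms depend on which ends were annotated.

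TrkC also exists with short inserts in the kinase domain, which are known to alter its signalling. The inserts come from 2 coding exons, printed whole in capitals because they define the transcripts compared next.
Ntrk3 insert of 75 nt (chr7:78229487-78229561, minus strand): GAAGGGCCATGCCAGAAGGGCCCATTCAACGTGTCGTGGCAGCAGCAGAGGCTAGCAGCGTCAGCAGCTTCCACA
Ntrk3 insert of 42 nt (chr7:78204103-78204144, minus strand): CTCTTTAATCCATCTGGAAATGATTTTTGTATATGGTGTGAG
Ntrk3-205 carries the 42-nt exon alone, which adds 14 codons, and Ntrk3-206 carries both, which adds 39 codons. The transcript with no insert, Ntrk3-201, had 2.41 TPM in replicate 1 and 2.70 TPM in replicate 2. Ntrk3-205 had 3.53 and 7.34 TPM and Ntrk3-206 had 2.88 and 0 TPM, so the estimates for these transcripts shifted between the libraries. The deposited bounds overlapped, at 1.23 to 6.24 TPM in replicate 1 and 4.74 to 7.98 TPM in replicate 2 for Ntrk3-205, and at 0.338 to 4.93 TPM in replicate 1 and 0.0000448 to 2.11 TPM in replicate 2 for Ntrk3-206. Their sum moved less, with 6.41 TPM in replicate 1 and 7.34 TPM in replicate 2, or 50.4% and 53.6% of the gene. By these estimates, transcripts with the 42-nt exon made up the larger part of full-length Ntrk3 RNA in both libraries. In expected counts they had 337 and 506 reads, against 155 and 231 for Ntrk3-201. In replicate 1 the bounds of Ntrk3-205 and of Ntrk3-206 each overlapped those of Ntrk3-201 (1.61 to 3.25 TPM), and reads on the 42-nt exon itself were not counted. The division between 14 and 39 added codons could not be read.

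**Figure D3:**
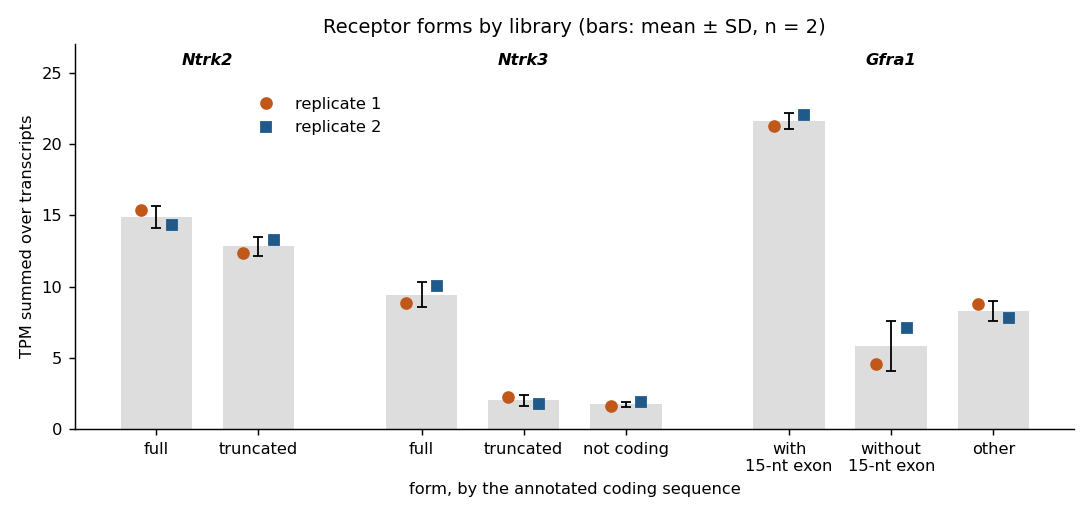
TPM summed over the transcripts of each form of Ntrk2, Ntrk3 and Gfra1, as the mean (bar) ± SD of 2 libraries with replicate 1 (circles) and replicate 2 (squares). The Ntrk2 forms lie between 12.3 and 15.4 TPM, while full-length Ntrk3 (8.82 and 10.0 TPM) stands above truncated Ntrk3 (2.29 and 1.76 TPM).

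Ngfr (chr11:95568818-95587735, minus strand), which encodes p75, had 11.3 TPM in replicate 1 and 13.4 TPM in replicate 2, a mean of 12.4 ± 1.5 TPM from 759 and 1203 reads on a single annotated transcript. It lay at nearly the level of Ntrk3: the log2 difference of Ngfr from Ntrk3 was -0.17 in replicate 1 and -0.03 in replicate 2, a mean of -0.10 ± 0.13 (SE; limma, adjusted p = 0.471), which does not show that they are equal. Sort1, which encodes sortilin, the partner of p75 in binding proneurotrophins, had 13.0 TPM in replicate 1 and 16.2 TPM in replicate 2. Sorcs2, a sortilin relative that also binds p75, had 14.3 and 12.7 TPM. Of 7 intracellular and membrane partners of p75, 7 were detected, led by Maged1 (911 ± 56.6 TPM), Bex3 (566 ± 18.3 TPM) and Arhgdia (365 ± 7.17 TPM), with Traf6 lowest at 8.16 ± 0.332 TPM.

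Of the GDNF family ligands, Nrtn (chr17:56751325-56757530, minus strand) was the one detected. It had 2.38 TPM in replicate 1 and 3.12 TPM in replicate 2, a mean of 2.75 ± 0.523 TPM from 44 and 77 reads. Gdnf itself (chr15:7810846-7837575, plus strand) had 0.10 TPM in replicate 1 and 0.04 TPM in replicate 2, from 7 and 4 reads of 32151659 and 41915240, close to the 0.0429 and 0.0300 TPM that 3 reads would give. Nrtn was 23.8 times Gdnf in replicate 1 and 78.0 times in replicate 2, but Gdnf fell under the mean count of 10 set for the test, so this pair has none. The remaining ligands of the family, chosen for mention after their values were seen, were also under a TPM of 1: Artn (artemin) had 0.24 and 0.23 TPM, and Pspn (persephin) 0.53 and 0.20 TPM in replicates 1 and 2. A level this low in whole midbrain is a limit for the tissue average and says nothing of single cells.

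Gfra1 (chr19:58235604-58455909, minus strand), the co-receptor that prefers GDNF, had the highest deposited TPM of the 9 genes. It had 34.6 TPM in replicate 1 and 36.9 TPM in replicate 2, a mean of 35.8 ± 1.63 TPM from 2368 and 3392 reads, above 69.2% of detected genes. Gfra2 (chr14:70890120-70979838, plus strand), the co-receptor that prefers neurturin, had 4.87 TPM in replicate 1 and 4.25 TPM in replicate 2, a mean of 4.56 ± 0.438 TPM. Gfra1 was above Gfra2 by 2.80 and 3.09 on the log2(TPM + 0.1) scale in replicates 1 and 2, a mean of 2.95 ± 0.11 (SE) or 7.71-fold (limma, adjusted p = 4.71e-151), in a fit where 92.4% of all genes differed from Gfra2. Among co-receptors the partner of GDNF was the higher one, while among ligands Nrtn was above Gdnf. Gfra4, the persephin co-receptor, singled out after its values were seen, had 11.6 TPM in replicate 1 and 11.9 TPM in replicate 2, or 2.37 and 2.80 times Gfra2.

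**Figure D4:**
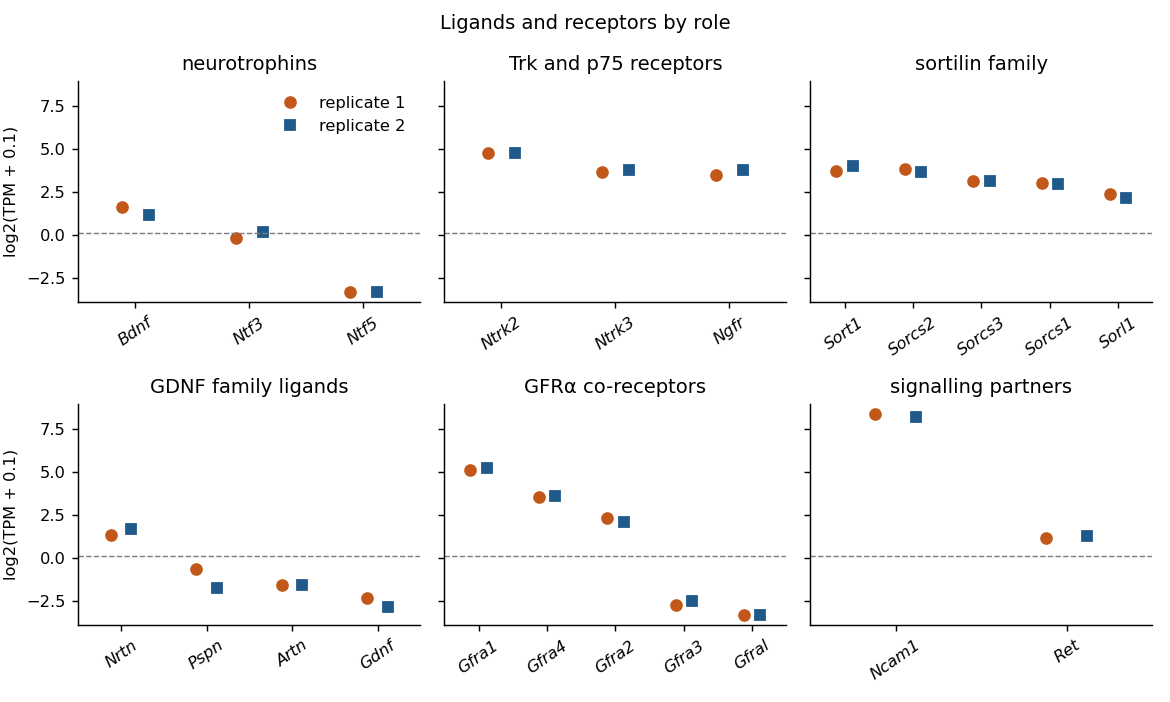
Levels of ligands and receptors by role as log2(TPM + 0.1) in replicate 1 (circles) and replicate 2 (squares), with the dashed line at a TPM of 1. Receptor panels lie mostly above the line and ligand panels mostly around or below it, and Ncam1 (331 and 297 TPM) stands far above Ret (2.12 and 2.32 TPM).

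Most Gfra1 RNA included a short alternative coding exon of 15 nt, which adds 5 codons in the extracellular part and is printed here because it separates the coding forms.
Gfra1 exon of 15 nt (chr19:58392573-58392587, minus strand): ATGTTTTCCAGCAAG
The 3 transcripts with this exon summed to 21.2 TPM in replicate 1 and 22.0 TPM in replicate 2, and the transcript without it had 4.59 and 7.08 TPM. The ratio of with over without was 4.63 in replicate 1 and 3.11 in replicate 2, a mean log2 ratio of 1.92 ± 0.40 (SD, n = 2). A further 8.78 and 7.80 TPM went to transcripts annotated with an incomplete coding sequence, mostly to the 841-nt Gfra1-204 (7.56 and 5.98 TPM), which ends before the 15-nt exon. These short models held 25.4% of the gene's TPM in replicate 1 and 21.1% in replicate 2 from only 119 and 133 reads, so the level of Gfra1, and its place above Ntrk2, depend on them. Gfra1 exons also overlap 416 nt of the antisense gene Gm16277, itself at 6.23 TPM in replicate 1 and 5.17 TPM in replicate 2, with the same limit on strand.

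Ret, the kinase through which GFRα co-receptors signal, was low beside Gfra1, Gfra2 and Gfra4, though not beside Gfra3, the artemin co-receptor, which had 0.05 TPM in replicate 1 and 0.08 TPM in replicate 2 from 2 and 4 reads. It had 2.12 TPM in replicate 1 and 2.32 TPM in replicate 2, from 304 and 423 reads, and was below even Gfra2 by a mean log2 difference of -1.0 ± 0.22 (SE) or 0.498-fold (limma, adjusted p = 5.29e-06). Gfra1 was 16.3 times Ret in replicate 1 and 15.9 times in replicate 2. Ncam1, the alternative partner of GFRα1, had 331 and 297 TPM, or 156 and 128 times Ret. In all, 9 of 15 other ligands and receptors were detected, led by Ncam1, Sort1 and Sorcs2, with Ntf5 and Gfral lowest at 0 reads.

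Receptors exceeded their preferred ligands in both libraries in the 3 pairs with enough reads. Ntrk2 was 9.10 times Bdnf in replicate 1 and 12.7 times in replicate 2, and Ntrk3 was 16.3 and 13.4 times Ntf3. Gfra2 over Nrtn was the narrowest, at 2.05 in replicate 1 and 1.36 in replicate 2.

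Most genes of the lists around the receptors were detected, with no share of coding genes to set this against. All 16 receptor adaptors and signal transducers were detected, where 14878 of all 43346 genes, non-coding ones included, were. Grb2, the adaptor that links receptor kinases to Ras, had 132 ± 1.82 TPM, Kidins220, a scaffold of Trk and p75, 84.2 ± 2.6 TPM, and Plcg1, the phospholipase recruited by Trk, 56.5 ± 1.06 TPM, while Shc3 was lowest at 1.77 ± 0.297 TPM. Of 7 genes linked, directly or indirectly, to the processing of proneurotrophins, 6 were detected. Plat, which encodes tissue plasminogen activator, had 52.9 ± 3.17 TPM, Pcsk2 18.6 ± 0.233 TPM and Pcsk7 16.5 ± 0.163 TPM, with Pcsk6 lowest at 0.510 ± 0.113 TPM. Of 6 regulators of Bdnf transcription, 5 were detected, with Usf1 at 188 ± 6.48 TPM, Creb1 at 36.6 ± 3.73 TPM and Crtc1 at 27.4 ± 0.325 TPM. Npas4, an activity-induced factor, was lowest at 0.270 TPM in each library. Of 9 genes known to respond to Trk or Ret signals, 8 were detected. Spry2, an inhibitor of the Ras pathway, had 26.4 ± 7.44 TPM, the phosphatase Dusp6 18.8 ± 2.76 TPM and the transcription factor Etv1 12.7 ± 1.75 TPM, and Fos was lowest at 0.690 ± 0.0283 TPM. Many other signals act on these genes, and their levels carry no reading of Trk or Ret activity.

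Between the replicates, Bdnf, Ngfr and Gfra1 differed by more than counting error, all by less than 2-fold. Over all genes the libraries also differed beyond sampling noise (chi-square per degree of freedom 9.52), a value pooled over genes that gives no share of them. The share of all genes that differ by more than counting error was not taken. Whether Bdnf, Ngfr and Gfra1 stand out in this therefore cannot be said. Ratios of replicate 1 over replicate 2 were taken from counts after TMM scaling, with exact 95% intervals that cover counting error only. At a mean count of at least 50, 0 of 7 genes passed a 2-fold difference, where 0.668% of all 14366 genes did so, so 0 of 7 is near the background. Their median log2 ratio was -0.14, against -0.0039 over all genes tested, and their median absolute log2 ratio was 0.15 (0.03 to 0.43), against 0.10 over all genes tested. Ntrk2 had the ratio nearest to 1, 0.979 (interval 0.941 to 1.02). Gfra1, at 0.902 (0.855 to 0.951), and Ngfr, at 0.815 (0.743 to 0.893), were lower in replicate 1 by more than counting error. Bdnf, at 1.35 (1.12 to 1.62), was higher in replicate 1 by more than counting error. The intervals of Ntrk3 (0.820 to 1.01), Gfra2 (0.954 to 1.29), Nrtn (0.498 to 1.08), Ntf3 (0.379 to 1.26) and Gdnf (0.575 to 10.5) included 1. The 5 context lists of adaptors, p75 partners, processing enzymes, responding genes and Bdnf regulators, and the list of other ligands and receptors, also had no gene past 2-fold. Their widest difference was at Etv4, named after its values were seen, with 108 reads in replicate 1 and 71 in replicate 2 and a log2 ratio of 0.95. In TPM the log2 ratio of Etv4 was 1.18 (3.35 TPM in replicate 1 and 1.42 TPM in replicate 2), past 2-fold, as the 1 of 51 context genes tested.

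**Figure D5:**
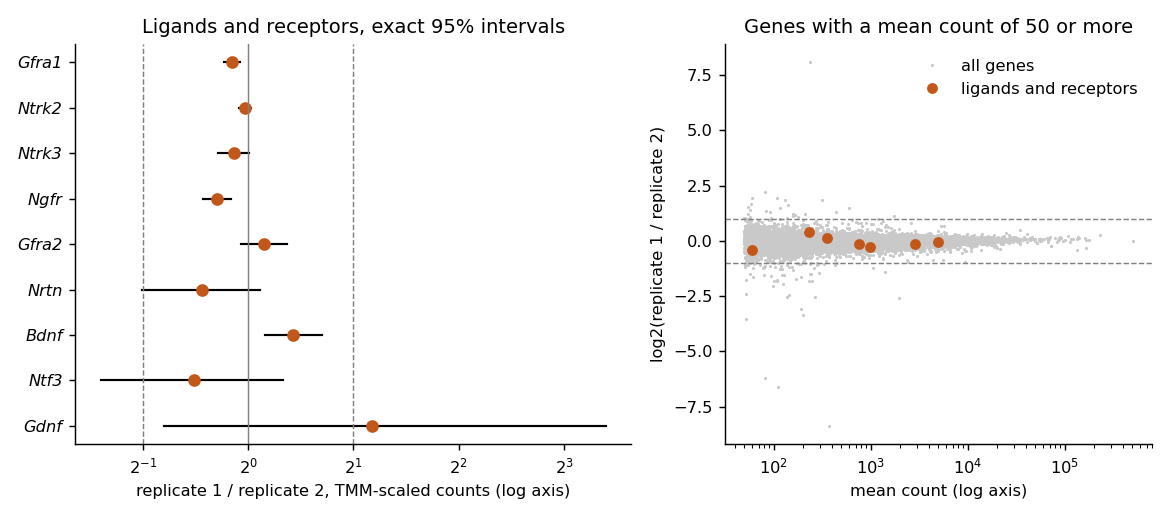
Left, the ratio of replicate 1 over replicate 2 of TMM-scaled counts (log axis) for the 9 genes with exact 95% intervals; right, the log2 ratio of every gene with a mean count of at least 50 (grey) against its mean count, with the 7 ligand and receptor genes that pass it in orange. Dashed lines mark 2-fold, and Bdnf (1.35) and Ngfr (0.815) lie farthest from 1 among the genes whose interval leaves it out.

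Several dopaminergic markers differed between the replicates by more than 2-fold, while the receptors did not. Of these markers, 4 of 6 were past 2-fold, all lower in replicate 1: Th had 18.3 TPM in replicate 1 and 46.8 TPM in replicate 2, Slc6a3 had 0.92 and 5.27 TPM, Pitx3 had 1.32 and 7.68 TPM, and Ddc had 14.7 and 33.6 TPM. The remaining markers of the list differed less, with ratios of 0.894 for Slc18a2 (22.2 TPM in replicate 1 and 24.1 TPM in replicate 2) and 0.871 for Nr4a2 (32.6 and 38.4 TPM). The cortex markers were past 2-fold in 4 of 4 cases in the same direction. Beside them, Ret had a ratio of 0.929 (0.799 to 1.08), and Gfra1 and Ntrk2 had the ratios given above, all within 2-fold. The difference between the marker ratios and the receptor ratios was not tested.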

How the data were processed

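The authors deposited, per library, expected counts (estimated reads), TPM scaled over all entries with spike-ins, posterior mean TPM, FPKM per length and depth, and the percent of a gene's abundance given to each transcript, per the file headers; mm10 and GENCODE M4 are named in the deposited text. The columns have RSEM names; no aligner, version or filter was stated. The labels' protocols list mirVana extraction and a SMARTer ultra low input manual. Names and positions came from GENCODE M21 on GRCm38 (42462 of 43346 genes matched). Spike-ins took 2.22% of reads in replicate 1 and 4.06% in replicate 2.

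Pairs were tested with limma 3.58.1 in R 4.3.3 (trend, log2(TPM + 0.1), which understates folds of low genes, mean expected count of at least 10, Benjamini-Hochberg over all genes, threshold 0.05). Rounded counts were TMM-scaled in edgeR 4.0.16 (prior count 2), with exact Clopper-Pearson 95% intervals; these and the 3-read limits cover counting error only, since the reads carry no molecular identifiers. DESeq2 1.42.0 size factors were an alternative. The libraries differed beyond sampling noise (chi-square per degree of freedom 9.52) and were counted as 2. Scripts were tested on simulated data. A form was full-length if its coding sequence ended at the stop of the longest, truncated if complete and ending elsewhere. Named genes were the 9 ligands and receptors, the 3 highest and the lowest of each context list, Ret, Ntf5 and Sort1; some genes of this rule are not reported here. Members and lists were chosen with earlier results of these data known.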

Additional observations from a re-analysis of the deposited data

How the results depend on the processing

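The 4 pair differences reported as past the threshold kept direction and call under all alternatives that could be tested (pseudocounts of 0.01 and 1, no count filter, FPKM, no trend, and a mean count of at least 50, where Ntf3 could not be fitted), with adjusted p up to 0.00165, and kept their direction in each library alone. Ngfr against Ntrk3 stayed between 0.446 and 0.650. The 7 detected genes became 8 at a TPM minimum of 0.5 and in replicate 2 alone, and were 7 at a minimum of 2, in replicate 1 alone and with spike-ins left out of scaling. In FPKM and in rescaled TPM, 6 neighbouring pairs were again apart; with 1 library overlap cannot be assessed, and in replicate 1 alone Bdnf passed Nrtn, which left 7 of 8 neighbours in order. Without incomplete Gfra1 transcripts, chosen after seeing the data, 5 pairs were apart and Ntrk2 came first (Gfra1 mean 27.5 TPM). Of 51 context genes, Etv4 passed 2-fold in TPM and 0 did under count scalings. Rescaling raised 3 of 9 levels by more than 1 SD (Gfra1 to 38.7, Ntrk2 to 29.9 and Ntrk3 to 14.3 TPM). The log2 ratio of full-length over truncated Ntrk2 was 0.51 in expected counts against 0.22 in TPM, reflecting their model lengths, and 0.11 to 0.32 in single libraries. None of the ligands and receptors tested passed 2-fold under any scaling or count filter (7 genes, 8 where the minimum mean count was 10, and 9 with no filter). These ratios carry the prior count of 2, or 0.1 added to TPM. Without the prior count the scaled ratio of Gdnf, from 7 and 4 reads, was 2.26, past 2-fold, with an interval of 0.575 to 10.5. At 1.5-fold 0 of 7 passed, while over all genes 96 became 447 at a mean count of at least 10, 2026 with no filter and 457 at 1.5-fold. No paired analysis was possible because there is 1 group. Depth limits Gdnf, Ntf3 and Nrtn, and 2 libraries limit every spread.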
